A study of Mus musculus with 4 samples.

Results

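Fibroblast growth factors signal through receptor tyrosine kinases, Ras, Raf and MEK to the kinase ERK, and 10 genes that report this activity (Dusp4, Dusp6, Spry1, Spry2, Spry4, Spred1, Spred2, Etv1, Etv4 and Etv5) were followed in the cerebral cortex of embryos that lack Gsdmd in neural progenitor cells. The 10 genes were taken by name from a deposited table of 26955 genes, as members of the dual specificity phosphatase, Sprouty, Spred and Pea3-type ETS families. All 10 were in the table and all passed the filter on low counts that left 15804 genes for the test. RNA sequencing compared 2 libraries of mice that carry floxed Gsdmd alleles and Nestin-Cre (cKO, replicates 2 and 6) with 2 libraries that the labels call WT (replicates 4 and 5), all C57BL/6 and all taken on embryonic day 13. The paper describes the controls as mice with floxed Gsdmd and no Cre, while the labels say wild type, and it names the tissue as cortex, while the labels say brain. Nestin-Cre is active in neural progenitor cells and their progeny, so blood vessels, microglia and blood cells in the same tissue keep Gsdmd. The series design speaks of triplicates, and 4 libraries were analysed here.

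ERK switches on its own brakes. Dusp4 and Dusp6 encode phosphatases that remove phosphate from ERK, the Sprouty proteins act between the receptor and Raf, and the Spred proteins keep Ras inactive through neurofibromin. Etv1, Etv4 and Etv5 encode ETS transcription factors that act as nuclear effectors of FGF signals, and Capicua is a repressor of such targets that ERK inactivates. In the embryonic forebrain, FGF ligands made at the rostral midline pattern the telencephalon, and genes of these families are widely used to show where FGF signals are received.

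Promoter windows (250 bases before to 50 after a start site) from RefSeq, build GRCm38.p6, matched 7 of the 10 genes, with 9 windows in all. Dusp4, Spry4 and Etv4 had no window. Of the Capicua octamers only the forms TGAATGAA and TGAATGGA were searched, on both strands. They stood in 0 of these 9 windows and in 1.30% and 1.21% of all 32851 windows. Other forms of the octamer were not searched, so a window without a match may still hold one. The ETS letters CCGGAAGT stood in 0 of the 9 windows and in 3.89% of all. The 6 letters that both octamers share, TGAATG, were chosen after the sequences had been seen. They stood in 2 of the 9 windows, 1 each of Dusp6 and Etv5, and in 12.7% of all windows. The upstream parts of these windows are shown because they hold the only matches to the letters searched, with the 6 letters on either strand in capitals. The Dusp6 stretch is chr10:99262981-99263230 on the plus strand and lies before the gene. The Etv5 stretch is chr16:22438369-22438618 on the minus strand and lies in an intron, just before an inner start site that is 1351 bases from the start of the gene. Letters that match are a description and not a bound site.

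Dusp6: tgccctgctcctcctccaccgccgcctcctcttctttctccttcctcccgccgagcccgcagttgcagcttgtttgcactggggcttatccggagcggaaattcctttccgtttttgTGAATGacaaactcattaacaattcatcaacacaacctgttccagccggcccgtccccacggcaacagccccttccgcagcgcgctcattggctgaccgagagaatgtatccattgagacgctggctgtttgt

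Etv5: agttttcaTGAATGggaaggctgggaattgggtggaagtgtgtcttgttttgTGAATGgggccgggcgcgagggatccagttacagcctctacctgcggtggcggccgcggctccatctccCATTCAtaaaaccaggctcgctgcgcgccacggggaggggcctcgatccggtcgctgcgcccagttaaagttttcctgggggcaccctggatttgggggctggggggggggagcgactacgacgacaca

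The libraries held 16962553 to 18205945 counts, and 32 genes passed edgeR's quasi-likelihood test at a Benjamini-Hochberg adjusted p under 0.05. Whether each library stands for its own embryo is not stated, so a p-value here speaks of library to library spread, which may be technical. That spread, as a coefficient of variation over all tested genes, was 13%. The targeted gene Gsdmd had 13 and 7 counts in cKO and 54 and 43 in WT (log2 fold change -2.34, standard error [SE] 0.40, edgeR adjusted p = 0.0846, over alternatives from 9.3e-06 to 0.789). WT replicate 5 had 7640 counts of Xist and 4 of 4 Y-linked genes, whereas the other 3 libraries had 1 to 12 and 1857 to 2191, so the only library with a female profile is a control. Levels are given as CPM, which are read counts scaled to the size of the library after TMM normalization. Because the tissue was sequenced in bulk, fewer cells of a type and less RNA per cell cannot be told apart.

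Of the 10 genes, 9 were lower in both cKO libraries than in both WT libraries, and Dusp4 was higher. None of them passed edgeR's quasi-likelihood test with adjustment over all genes. Among all tested genes 0.196% were called lower and 0.00633% higher, and the groups did not overlap in 20.3% with cKO lower and in 16.9% with cKO higher. At an unadjusted p under 0.05, 7 of the 10 were lower (all but Spry2 and Spred2 among the 9) and Dusp4 was higher, beside 3.79% lower and 3.32% higher of all tested genes. The log2 fold changes ran from -1.02 to 0.62 with a median of -0.53, and the median over all tested genes was -0.01. DESeq2 called 2 of the 10 (0.513% of all genes), edgeR's likelihood ratio test 3 (0.936%) and limma-voom 0 (0.171%). With 2 libraries a group an exact two-sided permutation test of a single gene cannot go below p = 0.333, so none is given.

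**Figure D1:**
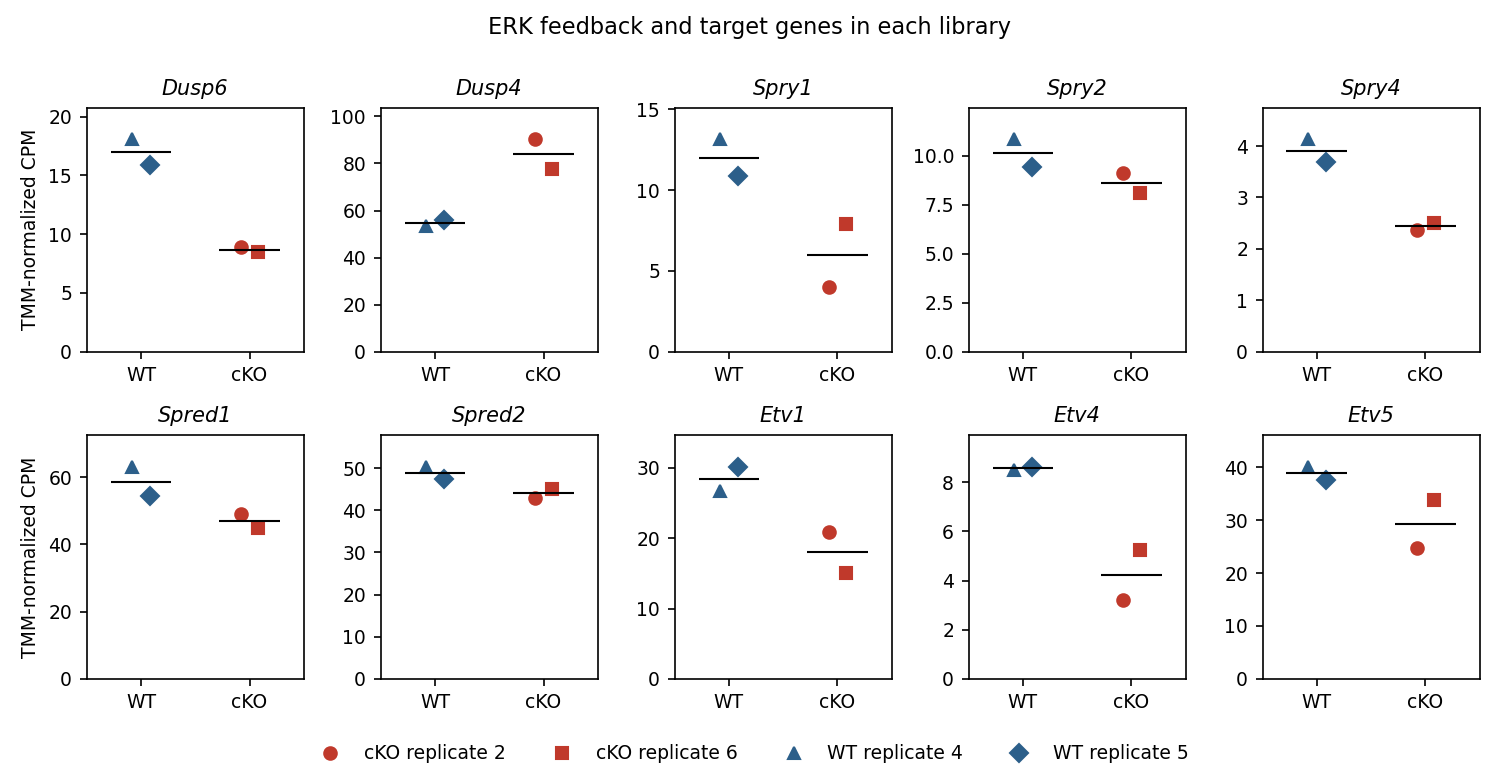
TMM-normalized CPM (vertical axes, from 0) of the 10 genes in WT replicates 4 and 5 (blue) and cKO replicates 2 and 6 (red), with a bar at each group mean. In 9 genes both red points lie below both blue points, and for Dusp4, at 77.5 and 90.2 against 53.2 and 56.0 CPM, both lie above.

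The phosphatase genes Dusp6 and Dusp4 differed between the groups in opposite directions, and they had the lowest p-values of the 10. Positions are printed as deposited, and 92.7% of the positions in the table equal GENCODE M21 on GRCm38, including 8 of these 10 genes but not Spry2 and Spry4. Dusp6 (ENSMUSG00000019960, chromosome 10, 99263231 to 99267489, plus strand), whose protein acts on ERK in the cytoplasm, had 8.87 and 8.47 CPM in cKO replicates 2 and 6 and 18.1 and 15.9 CPM in WT replicates 4 and 5. The cKO libraries lay close together, at 161 and 152 counts against 315 and 267. The log2 fold change was -0.97 (SE 0.17, edgeR adjusted p = 0.0887), a change of -48.9%. Dusp4 (ENSMUSG00000031530, chromosome 8, 34807297 to 34819894, plus strand), whose protein acts in the nucleus on ERK and other MAP kinases, had 90.2 and 77.5 CPM in cKO and 53.2 and 56.0 CPM in WT. Both cKO libraries were above both controls, at 1638 and 1390 counts against 928 and 940. The log2 fold change was 0.62 (SE 0.12, edgeR adjusted p = 0.120), a change of 53.7%. By unadjusted p, Dusp6 ranked 47 and Dusp4 62 among the 15804 genes. DESeq2 called both (adjusted p = 0.0115 and 0.0123), and so did the likelihood ratio test. Over all alternatives the adjusted p ran from 0.00073 to 0.789 for Dusp6 and from 0.0020 to 0.789 for Dusp4, with the highest value without WT replicate 5. Neither gene overlaps an exon of another gene in the GENCODE annotation.

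The ratio of Dusp4 to Dusp6 counts can be read within a library, where scaling between libraries does not enter. It was 10.2 in cKO replicate 2, 9.14 in cKO replicate 6, 2.95 in WT replicate 4 and 3.52 in WT replicate 5. The mean was 9.66 ± 0.728 in cKO and 3.23 ± 0.406 in WT (SD, n = 2 per group), 2.99 times as high in cKO. The pair was chosen after the values were seen, so the ratio is given with no test.

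**Figure D2:**
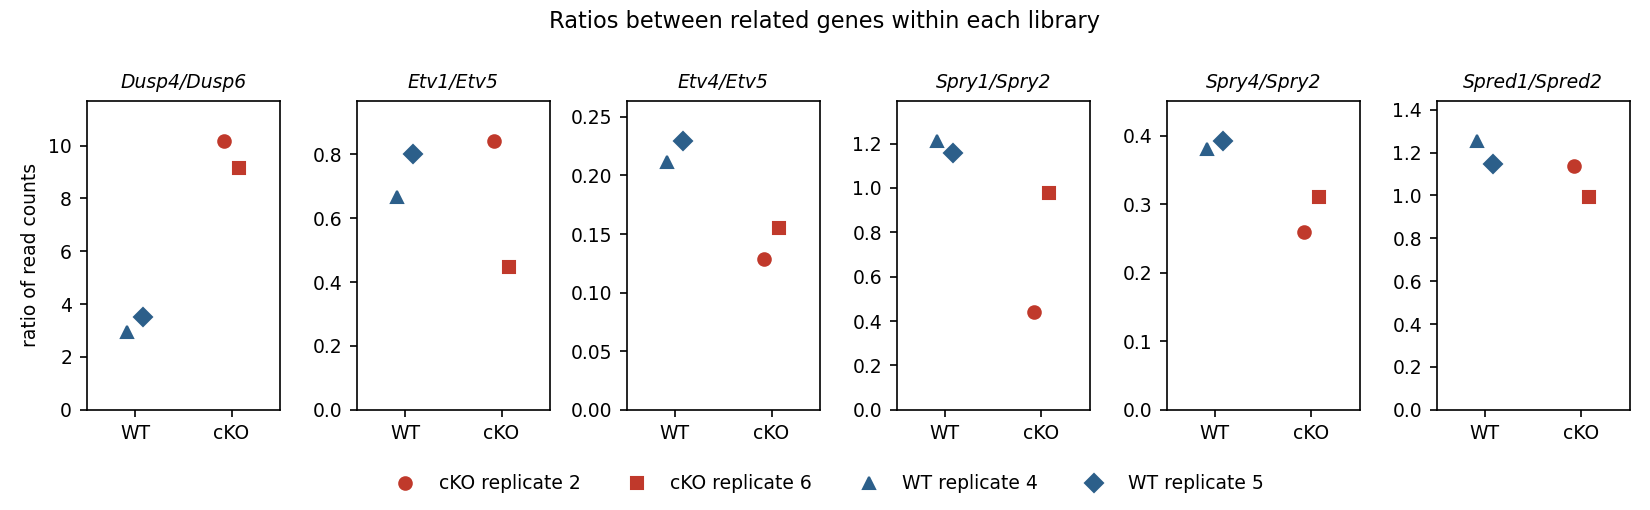
Ratios of read counts (vertical axes, from 0) between related genes within each library, WT in blue and cKO in red. None of the ratios was planned or tested. The Dusp4/Dusp6 ratio is at 9.14 and 10.2 in cKO and at 2.95 and 3.52 in WT, Etv4/Etv5, Spry1/Spry2, Spry4/Spry2 and Spred1/Spred2 are lower in both cKO libraries than in both WT libraries, and Etv1/Etv5 overlaps.

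The 3 Sprouty genes were all lower in both cKO libraries, by unequal amounts. Spry1 (ENSMUSG00000037211, chromosome 3, 37639947 to 37644598, plus strand) had 4.02 and 7.92 CPM in cKO and 13.1 and 10.9 CPM in WT. The cKO libraries differed 1.97-fold from each other, the widest gap between libraries of a group among the 10 genes. Its exons overlap Gm42922 on the other strand, which had 1 count. The log2 fold change of Spry1 was -1.01 (SE 0.29, edgeR adjusted p = 0.456), and it ran from -1.56 to -0.60 when 1 library was left out. Spry1 was called without cKO replicate 6 (adjusted p = 3.9e-05) and without WT replicate 4 (0.0408), over alternatives up to 0.815. Spry4 (ENSMUSG00000024427, chromosome 18, 38586268 to 38601268, minus strand) had 2.37 and 2.51 CPM in cKO and 4.13 and 3.69 CPM in WT, on 43, 45, 72 and 62 counts, the fewest of the 10 genes. Its log2 fold change was -0.68 (SE 0.25, edgeR adjusted p = 0.632). Spry2 (ENSMUSG00000022114, chromosome 14, 105891949 to 105896819, minus strand), a feedback inhibitor like the others, had 9.14 and 8.08 CPM in cKO and 10.8 and 9.40 CPM in WT. The gap between the lowest WT and the highest cKO library was small, and the log2 fold change of Spry2 was -0.23 (SE 0.18, edgeR adjusted p = 0.849). Counted within a library, Spry1 per Spry2 was 0.440 and 0.979 in cKO and 1.21 and 1.16 in WT, and Spry4 per Spry2 was 0.259 and 0.310 against 0.381 and 0.392. These ratios were not planned or tested, and they rest on the same counts as the fold changes.

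The Spred genes had the smallest differences beside Spry2. Spred1 (ENSMUSG00000027351, chromosome 2, 117121374 to 117182279, plus strand), whose human counterpart is mutated in Legius syndrome, had 49.0 and 44.8 CPM in cKO and 63.1 and 54.3 CPM in WT. All cKO values were below all WT values, with a log2 fold change of -0.32 (SE 0.12, edgeR adjusted p = 0.642). Spred2 (ENSMUSG00000045671, chromosome 11, 19924375 to 20024026, plus strand) had 43.0 and 45.1 CPM in cKO and 50.3 and 47.3 CPM in WT. The groups were again apart, by little, with a log2 fold change of -0.15 (SE 0.12, edgeR adjusted p = 0.851). Neither gene was called by any tool or without any library. With 781 to 1101 counts per library, these genes were among the best counted of the 10.

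The ETS factor genes were lower in cKO with differences in size between the cKO libraries. Etv4 (ENSMUSG00000017724, chromosome 11, 101769742 to 101785371, minus strand) had 3.20 and 5.24 CPM in cKO and 8.49 and 8.63 CPM in WT. The WT libraries were nearly equal and the cKO libraries 1.64-fold apart, and the log2 fold change was -1.02 (SE 0.25, edgeR adjusted p = 0.321). As percentages, Etv4 (-50.7%), Spry1 (-50.3%) and Dusp6 (-48.9%) lay close together. Etv4 passed in the likelihood ratio test (adjusted p = 0.0380) and without cKO replicate 6 (0.0015) or WT replicate 4 (0.0117), over alternatives up to 0.815. Etv1 (ENSMUSG00000004151, chromosome 12, 38779380 to 38870484, plus strand) had 20.9 and 15.1 CPM in cKO and 26.8 and 30.2 CPM in WT. Here cKO replicate 6 was the lowest library, and the log2 fold change was -0.66 (SE 0.19, edgeR adjusted p = 0.444). Leaving out cKO replicate 2 (adjusted p = 0.0045) or WT replicate 4 (0.0418) made Etv1 pass, over alternatives up to 0.854. Etv5 (ENSMUSG00000013089, chromosome 16, 22381309 to 22439719, minus strand) had 24.8 and 33.8 CPM in cKO and 40.1 and 37.6 CPM in WT, a log2 fold change of -0.41 (SE 0.17, edgeR adjusted p = 0.691), and no alternative called it. Between the cKO libraries, replicate 2 was lower than replicate 6 by 1.97-fold for Spry1, 1.64-fold for Etv4 and 1.37-fold for Etv5. It was also lower by 1.06-fold for Spry4 and 1.05-fold for Spred2. Replicate 2 was higher by 1.38-fold for Etv1, 1.16-fold for Dusp4, 1.13-fold for Spry2, 1.09-fold for Spred1 and 1.05-fold for Dusp6.

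**Figure D3:**
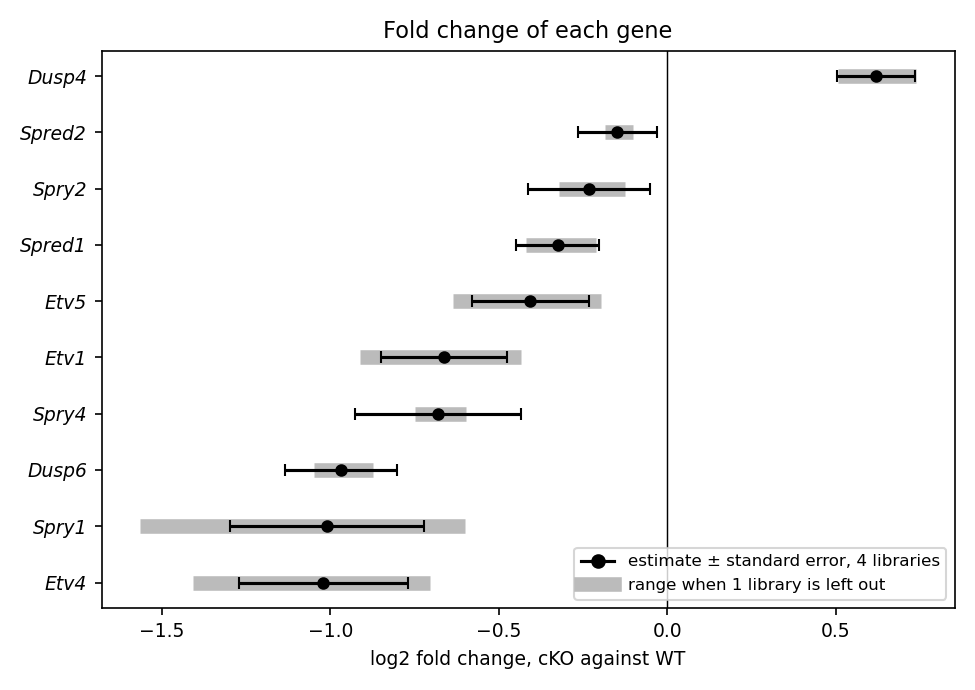
log2 fold change of cKO against WT for each of the 10 genes (horizontal axis), with points and bars for the estimate and its standard error over 4 libraries and grey bands for the range of estimates with 1 library left out. Dusp4 lies at 0.62 and the other 9 between -1.02 and -0.15, no band crosses 0, and the bands of Spry1 and Etv4 are the widest.

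Leaving out 1 library turned the direction of none of the 10 genes. The number called by the quasi-likelihood test was 2 without cKO replicate 2 (1.58% of all genes), 4 without cKO replicate 6 (0.962%), 5 without WT replicate 4 (1.78%) and 0 without WT replicate 5 (0% of all genes, with 694 genes at an unadjusted p under 0.05). The 5 called without WT replicate 4 were Dusp4, Dusp6, Spry1, Etv1 and Etv4. In such fits a group has a single library, which is assumed to vary like the other group. Without WT replicate 4 the only control has the female profile, so the sex of the libraries and their genotype cannot be told apart in that fit.

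Levels of different genes were compared per kilobase of exon, with exon lengths merged over all GENCODE transcripts. In WT, Dusp4 was the highest at 19.9 ± 0.706 CPM per kilobase (SD, n = 2), followed by Spred2 at 10.6 ± 0.463. Etv5 (9.47 ± 0.425) and Spred1 (8.65 ± 0.922) came next and overlapped, and so did Dusp6 (5.42 ± 0.490) with Spry2 and Spry2 with Spry1 (4.13 ± 0.545). Etv4 (2.76 ± 0.0328), Etv1 (2.14 ± 0.181) and Spry4 (0.822 ± 0.0652) were lowest and each above the next in both WT libraries. In cKO the order was the same except that Spry2 stood above Dusp6 in both libraries. Etv5 again overlapped Spred1 there, and Dusp6 overlapped Spry1, Spry1 overlapped Etv4 and Etv4 overlapped Etv1. Dusp4 reached 30.6 ± 3.29 CPM per kilobase in cKO and Dusp6 2.77 ± 0.0891.

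Upstream of these genes stand the FGF ligands, among which edgeR's quasi-likelihood test called genes. Of 7 tested ligands, edgeR called 2 lower, 0 higher and left 5 uncalled, and all 7 had log2 fold changes below 0 (median -0.63). Fgf15, a ligand of the rostral patterning centre, had 8.26 and 10.2 CPM in cKO and 39.6 and 36.7 CPM in WT (log2 fold change -2.05, SE 0.17, edgeR adjusted p = 0.0023). Its exons overlap the antisense genes Gm26793 and Gm39119, and no source used here says whether reads were counted by strand. Fgf17, another ligand of the rostral midline, had 0.992 and 1.73 CPM in cKO and 7.0 and 5.48 CPM in WT (log2 fold change -2.19, SE 0.31, edgeR adjusted p = 0.0359). The Fgf17 call was lost with limma-voom (adjusted p = 0.0575), without a filter (0.281) and without WT replicate 5 (0.789), over a range from 6.3e-08, and the Fgf15 call was lost without WT replicate 5 (0.769), over a range from 3.5e-20. Fgf8, the main organizer ligand of the rostral midline, did not pass the filter, with 1 and 0 counts in cKO and 18 and 7 in WT.

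None of 15 tested receptor tyrosine kinases was called. Fgfr3 had 153.8 and 171.9 CPM in cKO and 123.9 and 89.8 CPM in WT (log2 fold change 0.61, SE 0.16, edgeR adjusted p = 0.341), and DESeq2 called it (0.0439, over alternatives from 0.00066 to 0.815). Pdgfra, a receptor of oligodendrocyte precursors, had a log2 fold change of -0.94 (adjusted p = 0.629 from edgeR, over alternatives from 0.0309 to 1). Fgfr1 and Fgfr2 had log2 fold changes of 0.02 and 0.01, with overlapping groups. None of 27 core genes from the adaptors to the ERK kinases was called, and the median of their log2 fold changes was -0.03. Ptpn11, a phosphatase that helps to activate Ras, had a log2 fold change of 0.26 (SE 0.11, edgeR adjusted p = 0.693).

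**Figure D4:**
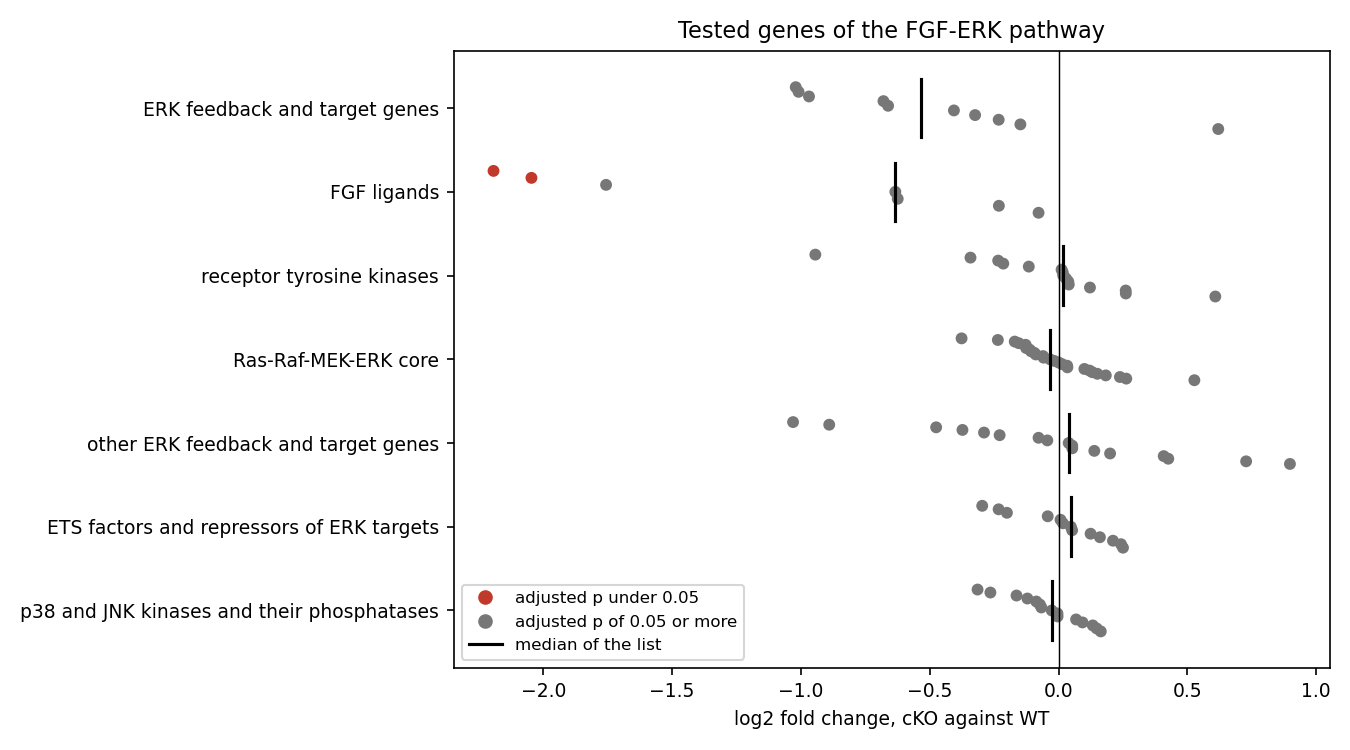
log2 fold change of cKO against WT (horizontal axis) of every tested gene in 7 lists of the pathway, with 1 point per gene, called genes in red and a bar at each list's median. The medians of the 10 feedback and target genes (-0.53) and of the FGF ligands (-0.63) lie below 0, and the other 5 medians lie between -0.03 and 0.05.

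Of 17 other feedback and target genes of ERK none was called, 9 were above 0 and 8 below, and the median was 0.04. Il17rd, which encodes the FGF antagonist Sef, had 10.96 and 8.98 CPM in cKO and 20.3 and 16.7 CPM in WT (log2 fold change -0.89, SE 0.18, edgeR adjusted p = 0.173). DESeq2 (adjusted p = 0.0420) and the likelihood ratio test (0.0085) called it lower, over alternatives from 0.0012 to 0.789. The AP-1 gene Fosl2 had 7.22 and 11.1 CPM in cKO and 4.70 and 5.12 CPM in WT (log2 fold change 0.90, SE 0.24, edgeR adjusted p = 0.401, over alternatives from 0.0017 to 0.877). Ccnd1, a cell cycle target, and Myc had log2 fold changes of -0.37 and -0.04 with overlapping groups. None of 13 ETS factors and repressors of ERK targets was called, among them the repressor genes Erf (0.21, adjusted p = 0.784) and Cic (0.12, adjusted p = 0.882), and Elk3 had -0.30 (adjusted p = 0.784). None of 15 genes of the p38 and JNK branches was called, with log2 fold changes between -0.31 and 0.16. Among these, Dusp1, a phosphatase of p38 and JNK, had -0.26 (adjusted p = 0.765) and Mapk8, which encodes JNK1, had -0.12 (adjusted p = 0.865). At an unadjusted p under 0.05, 3 of the 15 receptor genes were higher and 1 lower. Of the 27 core genes 2 were higher and 1 lower, and of the 17 other feedback and target genes 2 and 2. None of the ETS or the p38 and JNK genes passed that p. Among all tested genes 3.32% were higher and 3.79% lower at it. The likelihood ratio test called 0, 0, 1, 0 and 0 of these lists in the same order (0.936% of all genes). DESeq2 called 1, 0, 1, 0 and 0 (0.513%), and limma-voom 0 of each (0.171%).

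Lists of markers were read in the same libraries, each as the sum of its members. The 12 markers of the dorsal telencephalon summed to 2307 and 2672 CPM in cKO and 2274 and 2050 CPM in WT, so the defining genes of cortex were present in all libraries. None of them was called by edgeR, DESeq2 or limma-voom, and 5 had an unadjusted p under 0.05, all higher. The 12 markers of the rostral midline and septum, 4 of which are FGF ligands, summed to 160.5 and 169.4 CPM in cKO and 493.4 and 483.1 CPM in WT. Of 11 tested, 5 were called lower, and these include Fgf15 and Fgf17, the ligands already given above. The 14 ventral telencephalic markers summed to 984.6 and 651.7 CPM in cKO and 1286 and 1465 CPM in WT. The quasi-likelihood test and limma-voom called 0 of these 14, DESeq2 4 and the likelihood ratio test 6, and 12 were lower at an unadjusted p under 0.05. Among all tested genes the quasi-likelihood test called 0.196% lower. In both directions together limma-voom called 0.171%, DESeq2 0.513% and the likelihood ratio test 0.936%. At an unadjusted p under 0.05, 3.79% of all tested genes were lower and 3.32% higher.

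The 5 markers of oligodendrocyte precursors summed to 34.5 and 26.6 CPM in cKO and 68.1 and 78.3 CPM in WT, with Olig2 called lower. Olig2 alone gave 20.5 and 11.5 CPM of these sums in cKO and 49.6 and 53.5 CPM in WT. All 5 had log2 fold changes below 0, and that of Cspg4 was -0.08 with overlapping groups. The 12 diencephalic and hypothalamic markers summed to 65.1 and 68.8 CPM against 72.6 and 94.9 CPM, with 3 of 10 tested called lower. Hmx2, a hypothalamic gene among these, was read 52 and 48 times in WT and 0 times in each cKO library. Of the 10 tested, 8 had log2 fold changes below 0 and 2 above. The latter were Lhx9 (0.47, edgeR adjusted p = 0.618) and Barhl2 (0.42, edgeR adjusted p = 0.717). Both were higher in both cKO libraries than in both WT libraries. The 14 markers of hem and choroid plexus summed to 23.1 and 42.2 CPM in cKO and 45.2 and 198.3 CPM in WT, with Otx2 called lower. Ttr alone gave 142.1 CPM in WT replicate 5, against 0.573 CPM in WT replicate 4 and 0.165 and 0.335 CPM in cKO. Of 12 tested markers, 4 had log2 fold changes above 0 and 8 below. The sums of endothelial and pericyte markers (152.8 to 160.7 CPM in cKO, 161.7 to 182.2 CPM in WT), microglial markers (29.6 to 34.0 and 36.6 to 38.1 CPM) and erythroid markers (530.3 to 569.6 and 692.7 to 1040 CPM) were lower in both cKO libraries, and those of meninges and mesenchyme overlapped (11.9 to 15.3 and 14.6 to 18.7 CPM). None of their genes was called by any of the 4 tests run on all libraries, with 1, 1, 8 and 0 of them lower at an unadjusted p under 0.05. Of all tested genes 3.79% were lower at that p, and the quasi-likelihood test called 0.196% lower. No marker was at 0 in all 4 libraries. The part of these regions and cell types in the values of the 10 genes was not tested.

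**Figure D5:**
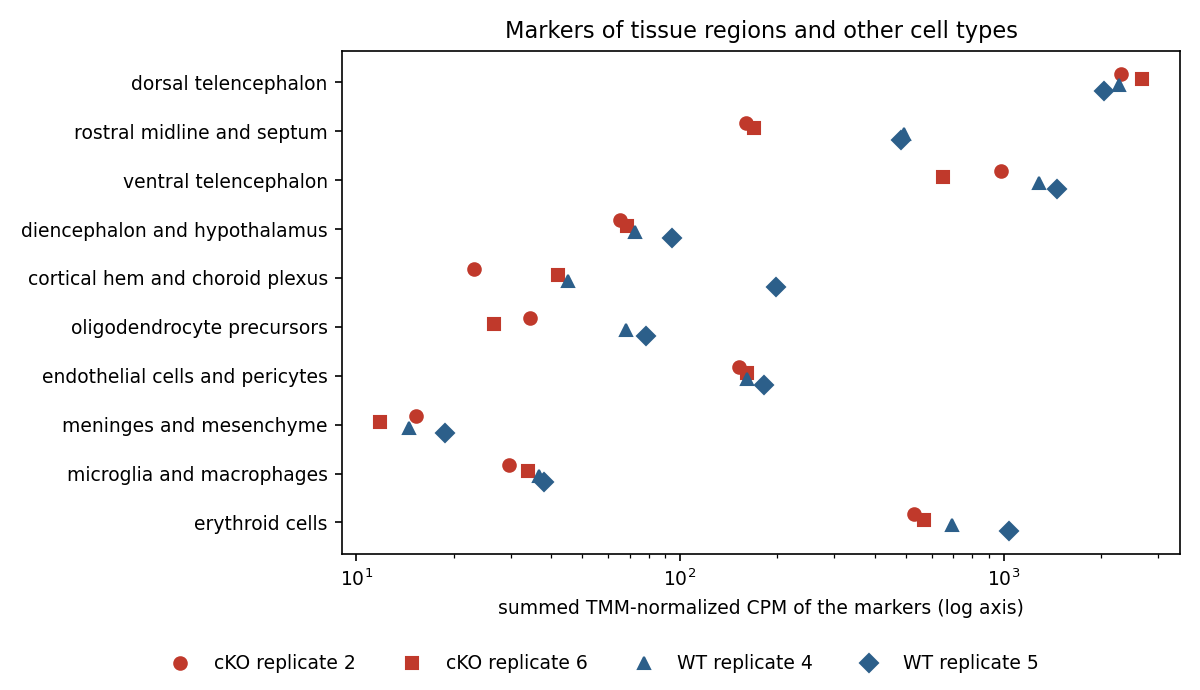
Summed TMM-normalized CPM (horizontal log axis) of 10 marker lists in each library, cKO in red and WT in blue. The rostral midline sums are 160.5 and 169.4 in cKO and 483.1 and 493.4 in WT, the ventral sums are lower and the dorsal sums higher in both cKO libraries, and WT replicate 5 stands apart in the hem and choroid plexus list at 198.3.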

How the data were processed

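The authors extracted RNA with Trizol from brain tissue on embryonic day 13 and sequenced 4 libraries, 2 per genotype. The values used are the raw counts that the authors deposited for each gene. The processing notes that the submitters gave list TopHat2 2.0.12, Bowtie2 2.2.3 and HTSeq 0.6.0, with mm9 as build. However, 92.7% of the deposited gene positions equal those of GENCODE M21 on GRCm38, and those of the members are printed as deposited. The strand setting is not given in the sources used. The authors' deposited normalized mean (a signal), fold change ratio, log2 fold change and p-values were not used.

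Counts were filtered with filterByExpr, scaled by TMM and tested with edgeR 4.0.16 (glmQLFit and glmQLFTest, prior count 0.125, no covariate) in R 4.3.3. SE was taken as |log2 fold change| divided by the root of F. Adjusted p-values follow Benjamini-Hochberg over 15804 genes, and genes under 0.05 were called. Alternatives were DESeq2 1.42.0, edgeR's likelihood ratio test, limma-voom (limma 3.58.1), DESeq2's size factors, no filter, a filter of 1 CPM, no X and Y genes, and leaving out each library. Steps were tested on simulated data. The members and lists were chosen with earlier results of these data known. Named are the 10 members, called genes of the other pathway lists or else their 2 genes of lowest p, and Gsdmd. The further genes named (Fgf8, Fgfr1, Fgfr2, Ccnd1, Myc and Cic, and the markers Olig2, Cspg4, Otx2, Ttr, Hmx2, Lhx9 and Barhl2) were chosen after their values were seen. Fgf20 and Spry3 were not analysed here, and 1 gene that the naming rule selects is not reported here.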

Additional observations from a re-analysis of the deposited data

How the results depend on the processing

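All 10 genes kept their direction under the 11 alternatives. None was called before, so calls could only be gained, and 16 of 110 gene values gained one. The number called among the 10 was 2 with DESeq2 and 3 with the likelihood ratio test, and 0 to 5 when 1 library was left out, and their median log2 fold change was -0.53 to -0.48 in those fits. Over all genes 81 were called with DESeq2, 148 with the likelihood ratio test, 8 without a filter and 0 to 292 with 1 library left out. Called FGF ligands were 1 with limma-voom, 1 without a filter and 0 to 3 with 1 library left out. DESeq2 called 1 receptor tyrosine kinase and 1 of the other feedback and target genes, and the likelihood ratio test 1 of the latter. With 1 library left out these lists gave 0 to 2 and 0 to 3 calls, and the core list 0 to 1. Without WT replicate 5 no gene was called (lowest adjusted p 0.225, 694 genes at an unadjusted p under 0.05), and the cause was not tested. No paired analysis was possible because the groups share no replicate number. Among the 10 genes the SE was highest for Spry1 (0.29), Etv4 (0.25) and Spry4 (0.25), which had the fewest counts.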
